A study of Xenopus laevis with 20 samples.

Results

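Genomic sites of β-catenin in gut explants were set beside those of Smad1 in whole embryos of the frog Xenopus laevis. The members were the 16303 peaks of the deposited β-catenin list and the 7976 peaks of the deposited Smad1 list, 24279 of the 43980 peaks in the 4 deposited lists. They were chosen by list alone, with no measured value. A site was called shared where peaks of both lists had at least 1 bp in common, and a peak's summit is the base of highest signal that the authors' table gives. All animals were labelled wild type at Nieuwkoop-Faber stage 20. The β-catenin list rests on 4 ChIP libraries (chromatin immunoprecipitation and sequencing), namely foregut explants with DMSO, foregut explants with BIO, hindgut explants with DMSO and hindgut explants with BIO, each with its own input library. BIO is a GSK3 inhibitor given at 60 μM from stage 12 to stage 20, and DMSO is its vehicle. The Smad1 list rests on 1 labelled whole-embryo ChIP library and its input, for which the labels give no treatment.

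By their peak names, the β-catenin peaks were called on the foregut, hindgut, DMSO and BIO libraries pooled, so neither tissue nor treatment can be told apart in them. The Smad1 peak names call the protein pSmad1, the phosphorylated form, and the experiment pooled. Whole embryos hold many tissues besides gut, so a shared site does not show that both proteins sat there in one and the same cell, or with one treatment. Each list is a single call set without a replicate list, so no comparison below has a spread between samples to test against. Values are therefore given as descriptions, without p-values. The 95% intervals of shares are exact (Clopper-Pearson) and cover counting error only. The number of reads behind a peak is unknown. No gene is named and no tissue marker was checked, because the sources used here do not give the genome build of the peaks.

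β-catenin carries the canonical Wnt signal. Without Wnt it is marked for destruction by a complex that contains GSK3, and with Wnt, or with GSK3 inhibited, it accumulates, enters the nucleus and acts on genes through TCF/LEF proteins bound to DNA. Smad1 carries the BMP signal. BMP receptors phosphorylate it, after which it binds DNA together with Smad4. In vertebrate embryos, both pathways take part in dividing the gut tube into foregut and hindgut. p300 is a histone acetyltransferase found at many active enhancers, and its peaks in the same series are used below as a readout that the choice of sites did not use.

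Most Smad1 peaks met a β-catenin peak, while most β-catenin peaks, in the longer list, met no Smad1 peak. Of the Smad1 peaks, 5035 (63.1%, interval 62.1 to 64.2) met a β-catenin peak, against 4991 of the β-catenin peaks (30.6%, interval 29.9 to 31.3). Nearly every partnered peak had a single partner, so the numbers of partnered peaks are almost equal and the shares differ through the lengths of the lists. With the β-catenin list cut to its 7976 strongest peaks, the shares were 40.8% of Smad1 and 40.4% of β-catenin peaks, which one-to-one pairing makes nearly equal by construction. The lists met in 5036 pairs. Only 45 β-catenin peaks held 2 Smad1 peaks, and these were wide (median 1262 bp against 516 bp for the whole list). A single Smad1 peak met 2 β-catenin peaks. For the descriptions below, each peak was paired with its nearest partner summit and used once, which gave 4990 shared sites.

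Peaks either coincided over a long stretch or did not touch. The least overlap of any pair was 168 bp and the next were 172 and 174 bp, far above the limit of 1 bp. The median overlap was 395 bp. On the other side of the limit, the unshared β-catenin peaks nearest to a Smad1 peak were 47, 52 and 57 bp away from its edge, and 6 were under 100 bp away. At 3863 of the 4990 sites (77.4%) the whole Smad1 interval lay within the β-catenin interval, and at 129 (2.59%) the reverse held. Smad1 intervals were the narrower ones at shared sites, with a median of 404 bp against 584 bp.

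The summits of both proteins lay close to the same base. The median distance was 26 bp, with 12 bp at the lower quartile and 52 bp at the upper one. Summits fell on the identical base at 60 sites. They were up to 10 bp apart at 1116 sites (22.4%, interval 21.2 to 23.5), up to 25 bp apart at 2417 (48.4%, interval 47.0 to 49.8) and up to 100 bp apart at 4559 (91.4%, interval 90.6 to 92.1). The Smad1 summit lay at the higher coordinate in 2452 sites and at the lower in 2478, with a median signed offset of 0 bp, so the distances had no preferred side along the chromosome sequence. The orientation of motifs or genes was not used.

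**Figure D1:**
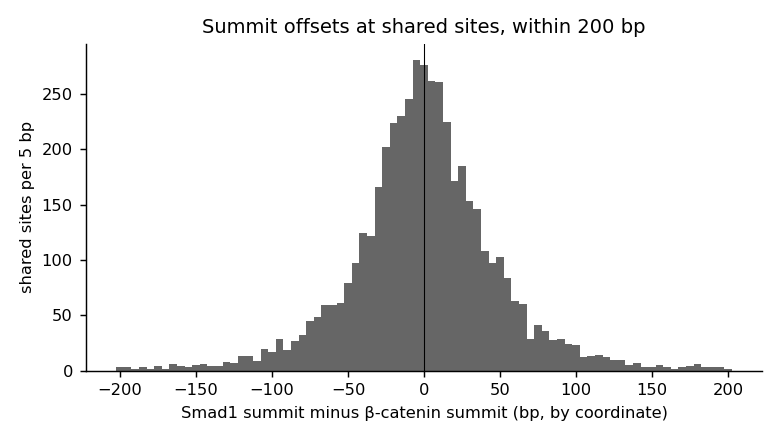
Smad1 summit position minus β-catenin summit position (bp along the chromosome, x axis) against the number of shared sites per 5 bp (y axis), for the 4814 of 4990 sites within 200 bp. The distances pile up around 0 and fall off alike on both sides, with a median absolute distance of 26 bp over all sites.

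A small group of sites had summits far apart. At 176 sites the distance was over 200 bp, and at 48 of them over 500 bp. Peaks of both proteins were wider there than at the other shared sites. The median width was 967.5 bp against 576 bp for β-catenin and 542.5 bp against 401 bp for Smad1. The most distant summits were 1999 bp apart, on chromosome 1L, where a β-catenin peak from 18328124 to 18331799 (3676 bp wide, 33.7-fold enriched) held a Smad1 peak from 18329076 to 18329495 (8.74-fold). On chromosome 9_10S, the β-catenin peak from 4415491 to 4417983 (16.5-fold) and its Smad1 partner from 4415592 to 4416053 (8.20-fold) had summits 1621 bp apart. At the third such site, on chromosome 8L from 104943237 to 104945166, a 23.3-fold β-catenin peak held an 11.2-fold Smad1 peak with its summit 1469 bp away. In these 3 cases a narrow Smad1 peak lay within a broad β-catenin peak, away from its summit.

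Summit distance varied little with the strength of the peaks. Each peak was ranked within its own list by the authors' −log10 p-value, with rank 1 the strongest. In the 10% of shared sites with the strongest Smad1 peaks the median distance was 22 bp, and in the weakest 10% it was 32 bp. Ordered by β-catenin rank and cut into 10 groups of 499, the medians of the groups stayed between 24 and 29 bp. Here and below, a shared site was counted as having p300 where its β-catenin peak overlapped a p300 peak by at least 1 bp. Overlap with the Smad1 peak, by median the narrower one, was not required. Explant p300 was less frequent where the summits lay over 50 bp apart than where they lay closer. It was found at 75.3% of sites with summits up to 10 bp apart (interval 72.6 to 77.8), at 75.6% of those over 10 and up to 50 bp apart (interval 73.9 to 77.2), at 69.9% of those over 50 and up to 200 bp apart (interval 67.1 to 72.6) and at 67.0% of those over 200 bp apart (interval 59.6 to 73.9). For reference, 36.0% of all β-catenin peaks and 59.0% of all Smad1 peaks overlapped explant p300.

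Where a p300 summit could be paired, it lay about as close to the summit of one protein as to that of the other. At 3685 shared sites with an explant p300 summit, that summit was a median of 27 bp from the β-catenin summit and 29 bp from the Smad1 summit, while the β-catenin and Smad1 summits were 25 bp apart. p300 was nearer to β-catenin at 1858 of them, nearer to Smad1 at 1760 and equally near at 67. It lay on or between the other summits at 1173 sites (31.8%). The share to be met with summits scattered alike was not worked out, so this value does not place p300 between the proteins. Here p300 and β-catenin were measured in explants and Smad1 in whole embryos.

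The fold enrichments of the proteins were only loosely related. Fold is the authors' ratio of ChIP signal to local background at the peak. Across the 4990 shared sites, Spearman's rho of the folds was 0.243 and Pearson's r of the log2 folds was 0.280. For the ranks, rho was 0.371. The points of these correlations share their position in the genome and therefore its copy number and mappability, and both measures also rise with peak width (rho of width and fold 0.315 for β-catenin and 0.401 for Smad1). Within a list, rank and fold are related but not the same, with a rho of fold and −log10 p of 0.807 for β-catenin and 0.900 for Smad1. The rho of the folds was above 0 on each of the 18 named chromosomes, from 0.168 on chromosome 1L to 0.359 on chromosome 3S, and it was 0.254 over the 264 sites on unplaced scaffolds.

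**Figure D2:**
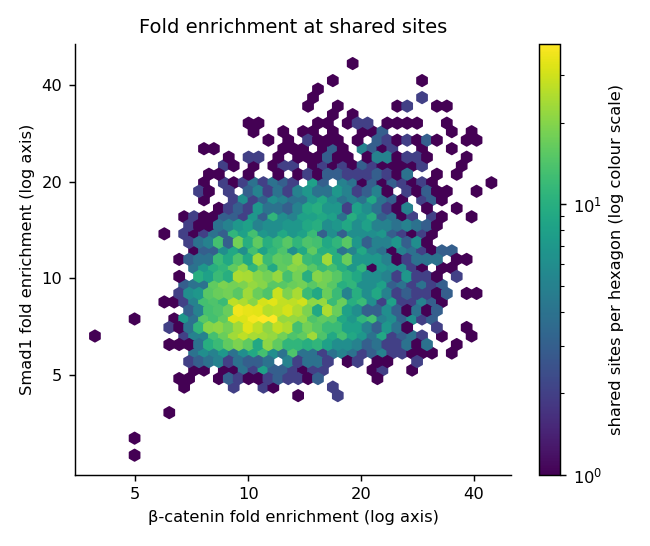
β-catenin fold enrichment in explants (x axis, log scale) against Smad1 fold enrichment in whole embryos (y axis, log scale) at the 4990 shared sites, with colour for the number of sites in each hexagon. The cloud is broad and tilts slightly upward (Spearman's rho 0.243), and most sites sit near 10-fold on both axes.

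The relation was closer among the strong sites and among the sites with p300. Among sites whose β-catenin peak was in the upper 50% of its list, rho of the folds was 0.194 (n = 3278), and among the others it was 0.0105 (n = 1712). For sites in the upper and lower 50% of the Smad1 list, rho was 0.236 (n = 3107) and 0.0466 (n = 1883). A narrower range of values lowers a correlation by itself, and how far it does so here was not tested. With explant p300 rho was 0.280 (n = 3689), without it 0.0884 (n = 1301), and with p300 in both tissues 0.352 (n = 1503). It was also higher where the summits lay up to 50 bp apart (0.270, n = 3694) than where they lay over 100 bp apart (0.156, n = 431). Sites with the widest β-catenin peaks had a rho of 0.288 (n = 1664), and those with the narrowest 0.153 (n = 1663), so width moved with the relation too. Sites without explant p300 also came more often from the lower ranks, as given below. The parts of width, of rank and of the range of values in the values for p300 were not tested.

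Partner fold fell off along the ranks mainly at the top, while the partner's median position in its own list fell over most of the range. The shared sites were ordered by the rank of one protein and divided into 10 groups of 499. In group 1 by β-catenin rank, the strongest (median β-catenin fold 24.6), the Smad1 partner had a median fold of 12.3 and a median position at 13.3% of the Smad1 list, where 0% would be the top. By group 6 it had come down to 8.46-fold and 43.9%, and in group 10 it was 7.96-fold at 55.3%. In the other direction, the β-catenin partners in group 1 by Smad1 rank had a median fold of 16.9 at 10.6% of their list. In group 5 the value was 12.1-fold at 36.95%, and in group 10 it was 11.5-fold at 49.5%. From group 6 by β-catenin rank onward the Smad1 medians stayed between 7.96- and 8.46-fold, and from group 5 by Smad1 rank onward the β-catenin medians stayed between 11.2- and 12.2-fold. The quartiles of neighbouring groups overlapped throughout.

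Shared sites came more often from the stronger part of both lists, and p300 was most frequent where both peaks ranked high. The β-catenin peak was in the upper 50% of its list at 3278 of the 4990 sites (65.7%), and the Smad1 peak in its upper 50% at 3107 (62.3%). Peaks in the upper 50% of their list are called strong below. Both were strong at 2279 sites, β-catenin alone at 999, Smad1 alone at 828 and neither at 884. Explant p300 overlapped the β-catenin peak at 85.7% of the sites in the upper 50% of both lists (1952 of 2279, interval 84.1 to 87.1). The share was 62.9% where β-catenin alone was strong (interval 59.8 to 65.9), 71.4% where Smad1 alone was strong (interval 68.2 to 74.4) and 58.6% where neither was (interval 55.3 to 61.9). The intervals for β-catenin alone and for neither overlap. By these counts, p300 was more frequent where Smad1 alone was strong than where β-catenin alone was. The counting intervals do not overlap, but sites are not replicates. With each list first cut to its upper 50%, the shares were 68.1% (interval 63.3 to 72.6) and 59.5% (interval 54.8 to 64.2). Those intervals overlap. At a stricter cut, the top 25% of one list was set against the lowest 25% of the other. The shares were then 69.6% with Smad1 at the top (interval 60.7 to 77.5) and 62.7% with β-catenin at the top (interval 55.3 to 69.7). The intervals at that cut overlap. The upper 50% of the longer β-catenin list takes in more peaks than that of the Smad1 list. This comparison was not repeated with lists of equal length, and the part of peak width in it was not tested.

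In the whole-embryo p300 list, too, p300 was most frequent where both peaks were strong and next most frequent where Smad1 alone was. That is the shorter list, and 12.8% of all β-catenin peaks overlapped it. Its share was 47.0% with both peaks strong (interval 44.9 to 49.1), 31.5% with Smad1 alone strong (interval 28.4 to 34.8), 18.4% with β-catenin alone strong (interval 16.1 to 21.0) and 19.2% with neither (interval 16.7 to 22.0). The last pair of intervals overlap. Of the 325 sites in the top 10% of both lists, 318 overlapped explant p300 (97.8%, interval 95.6 to 99.1) and 242 whole-embryo p300 (74.5%, interval 69.4 to 79.1). At the 12 sites in the top 1% of both lists, explant p300 was present at each of the 12 and whole-embryo p300 at 11. Their median summit distance was 17 bp.

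**Figure D3:**
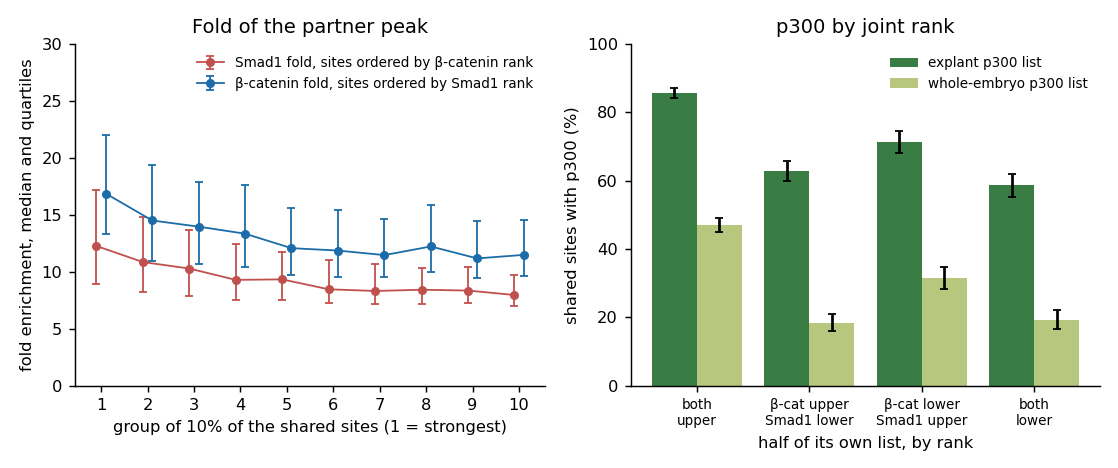
Left, median fold of the partner peak with quartiles (y axis) in 10 groups of 499 shared sites each, ordered by the rank of the other protein's peak (x axis, 1 is strongest). Right, percentage of shared sites whose β-catenin peak overlaps a p300 peak in explants or whole embryos, with exact 95% intervals. Sites are split by whether each peak ranks in the upper or lower 50% of its own list. Partner fold falls over the first groups and then levels off, and p300 is most frequent where both peaks are strong (85.7% and 47.0%).

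The sites that ranked best in both lists combined high enrichment of each protein. On chromosome 3S, the strongest Smad1 peak of the list (from 33505988 to 33507149, 42.3-fold) lay on a 28.3-fold β-catenin peak from 33505942 to 33507110, which ranked 52, with summits 18 bp apart. A site on chromosome 5L, with β-catenin from 123040630 to 123041401 (38.0-fold, rank 15) and Smad1 from 123040709 to 123041151 (27.3-fold, rank 29), had summits 16 bp apart. Chromosome 1S held a pair of such sites. The first had β-catenin from 16723599 to 16724907 at 28.7-fold and Smad1 at 36.9-fold, 11 bp between summits, and the second had β-catenin from 16873820 to 16874926 at 26.8-fold and Smad1 at 34.6-fold, 82 bp between summits. On chromosome 7S, β-catenin from 16939157 to 16940033 (27.8-fold, rank 64) met Smad1 at 30.2-fold (rank 7). All 5 sites overlapped explant p300, and all but the one on chromosome 5L also overlapped whole-embryo p300.

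Other shared sites ranked high in one list and low in the other. A low rank holds only within its own list. The lowest −log10 p-value was 78.6 in the β-catenin list and 14.4 in the Smad1 list. The most extreme in favour of β-catenin was on chromosome 2S from 87387090 to 87387763, where β-catenin was 38.9-fold enriched (rank 91) and Smad1, from 87387243 to 87387570, 6.56-fold (rank 7726 of 7976). A β-catenin peak of rank 23 on chromosome 9_10L from 40821075 to 40822004 (35.9-fold) met a Smad1 peak of rank 7650 (6.25-fold). On chromosome 4S, from 15240483 to 15240893, a 22.1-fold β-catenin peak had its summit 6 bp from that of a Smad1 peak of rank 7932 (6.21-fold), so that unequal strength was compatible with nearly identical position. None of these 3 sites overlapped whole-embryo p300, and the first and the second overlapped explant p300.

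In the opposite direction, a Smad1 peak of rank 97 on chromosome 8L (24.6-fold) met a β-catenin peak from 57875224 to 57875871 of rank 15353 of 16303 (10.2-fold). Smad1 ranked 622 (17.2-fold) and β-catenin 15893 (9.85-fold) on chromosome 3L from 111037681 to 111038074. On chromosome 1L from 111355874 to 111356941, Smad1 was 14.1-fold enriched and ranked 772, while β-catenin was 6.66-fold enriched and ranked 16142. Explant p300 overlapped the last of these 3, and whole-embryo p300 overlapped the first and the last. Peaks in the top 25% of the β-catenin list had a partner in the lowest 25% of the Smad1 list at 185 sites (3.71% of shared sites), the reverse held at 125 (2.51%), both peaks were in the top 25% at 1027 (20.6%), and both were in the lowest 25% at 203 (4.07%).

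The share of peaks with a partner was alike on the long (L) and short (S) chromosomes, which in this allotetraploid frog descend from different parent species. Of the Smad1 peaks, 63.3% on L (interval 61.9 to 64.7) and 62.8% on S chromosomes (interval 61.0 to 64.5) met β-catenin. Of the β-catenin peaks, 30.9% on L (interval 29.9 to 31.8) and 31.0% on S (interval 29.9 to 32.2) met Smad1. Over single chromosomes the share of Smad1 peaks with β-catenin ran from 54.1% on chromosome 8S to 70.8% on chromosome 3S, and that of β-catenin peaks with Smad1 from 28.3% on chromosome 9_10L to 36.5% on chromosome 7S. On unplaced scaffolds, 63.9% of Smad1 peaks (interval 59.0 to 68.5) but 25.9% of β-catenin peaks (interval 23.2 to 28.7) had a partner.

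Unshared Smad1 peaks lay nearer to β-catenin than unshared β-catenin peaks lay to Smad1. The 2941 Smad1 peaks without β-catenin were a median of 16.0 kb from the nearest β-catenin peak, measured from edge to edge, and 40.4% of them were within 10 kb. The 11312 β-catenin peaks without Smad1 were a median of 69.8 kb from the nearest Smad1 peak, 21.3% were within 10 kb, and 43.4% were more than 100 kb away. For Smad1 peaks the share over 100 kb was 14.8%. A longer list has nearer neighbours by its length alone. With both lists at 7976 peaks the medians were 33.7 kb and 70.8 kb. With the upper 50% of each list, where the β-catenin list stayed the longer, they were 27.3 kb and 143.4 kb. The distance from β-catenin to Smad1 was the longer each time. Left out of these distances were 327 β-catenin and 50 Smad1 peaks on scaffolds without a peak of the other list. Near misses were few, with 340 β-catenin (3.10%) and 195 Smad1 peaks (6.74%) within 1 kb of the other list.

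Shared peaks lay in denser surroundings than unshared ones. A β-catenin peak with Smad1 was a median of 12.2 kb from the next Smad1 peak that it did not overlap, against the 69.8 kb of β-catenin peaks without Smad1. For Smad1 peaks the corresponding medians to a further β-catenin peak were 6.99 kb and 16.0 kb. The same held within each list. The nearest other β-catenin peak was 6.87 kb away from a β-catenin peak with Smad1 and 20.9 kb from one without, and the nearest other Smad1 peak was 11.9 kb from a Smad1 peak with β-catenin and 22.3 kb from one without. Density within a list thus moved together with sharing, and its part in the sharing was not tested.

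**Figure D4:**
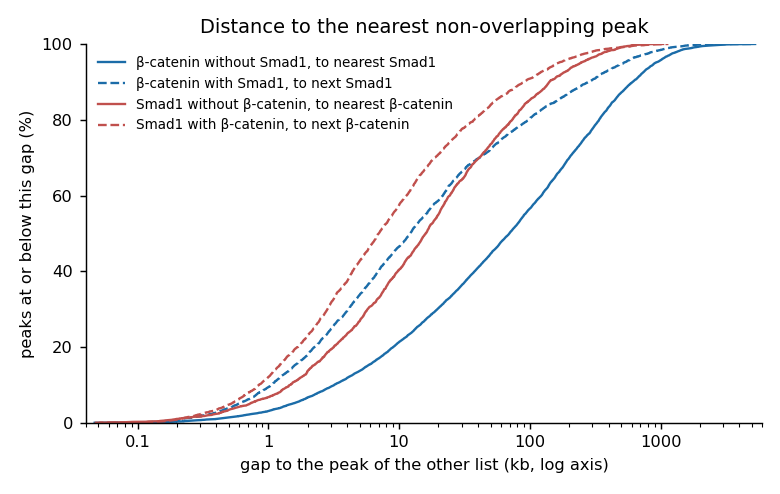
Cumulative percentage of peaks (y axis) by the gap in kb to the nearest non-overlapping peak of the other list (x axis, log scale), for β-catenin (blue) and Smad1 (red) peaks without a partner (solid) and with one (dashed). Peaks with a partner have a further peak of the other list closer by, and the curve of β-catenin peaks without Smad1 lies farthest to the right, with a median of 69.8 kb.

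Among unshared peaks, p300 was more frequent close to the other protein than far from it. Of the unshared β-catenin peaks up to 1 kb from a Smad1 peak, 29.4% overlapped explant p300 (100 of 340, interval 24.6 to 34.6), as did 25.1% from 1 to 10 kb (interval 23.2 to 27.0), 19.2% from 10 to 100 kb (interval 18.0 to 20.5) and 16.5% beyond 100 kb (interval 15.4 to 17.6). Smad1 peaks without β-catenin had explant p300 at 42.1% up to 1 kb from β-catenin (interval 35.0 to 49.3) and at 28.5% beyond 100 kb (interval 24.3 to 33.0). The median rank of the unshared β-catenin peaks hardly differed between these classes, lying between 54.1% and 57.5% of the list. Their median fold was 11.0 up to 1 kb and 12.5 beyond 100 kb, and their median width 542.5 bp and 471 bp, so isolated β-catenin peaks were slightly narrower and higher. For unshared Smad1 peaks the median fold stayed between 7.51 and 7.68, while their median rank was at 66.0% of the list up to 1 kb, 65.1% from 1 to 10 kb, 67.8% from 10 to 100 kb and 70.0% beyond 100 kb. The peaks far from β-catenin, which had the lowest p300 share, thus also ranked lowest, and the part of rank in that share was not tested.

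The strongest unshared peaks were not near misses where a distance could be measured. The top 3 β-catenin peaks of the whole list had no Smad1 partner. The first, on Scaffold62 from 640508 to 641531 (50.4-fold), was 12.5 kb from the nearest Smad1 peak (11.3-fold). The second, on chromosome 4L from 130282956 to 130284347 (46.7-fold), was 19.8 kb away, and the third, on chromosome 5S from 61738477 to 61739096 (39.9-fold), was 80.9 kb away. The highest-ranked β-catenin peak with a partner came at rank 9. In the Smad1 list the peaks of rank 1 and 2 were shared. The third, from 43 to 361 on the unplaced Scaffold32528 (46.4-fold), had no β-catenin peak on its scaffold, so its distance is unknown. After it, the next Smad1 peak without β-catenin followed only at rank 102, on chromosome 5S from 118166499 to 118167093 (24.9-fold, 6.03 kb from β-catenin). Rank 162 was on chromosome 6S from 72513921 to 72514443 (24.4-fold, 136.7 kb from β-catenin). Both overlapped explant p300, as did the β-catenin peaks of rank 1 and rank 3. The β-catenin peak of rank 2 and the Smad1 peak of rank 3 overlapped neither p300 list.

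Some loci held several peaks of both proteins. Peaks of either list were joined into a locus where the gap was at most 10 kb, which gave 13476 loci. Of these, 7732 held β-catenin peaks alone, 1620 held Smad1 peaks alone and 4124 held both. At least 3 peaks of each list were found in 347 loci (2.58%), of which 202 were on L chromosomes, 136 on S chromosomes and 9 on scaffolds. Of all peaks on named chromosomes, 9143 of 15284 β-catenin and 4503 of 7561 Smad1 peaks were on L chromosomes. The L chromosomes thus held a like share of these loci and of all peaks. These 347 loci had a median span of 18.6 kb and held 1734 β-catenin peaks (10.6% of the list) and 1465 Smad1 peaks (18.4%). They were chosen for their numbers of peaks, so a larger share of peaks than of loci follows from that choice. β-catenin peaks, from the longer list, were the more numerous in 162 of them, Smad1 peaks in 59, and the numbers were equal in 126. Of these 347 loci, 7 held no explant p300 peak. A locus with many peaks is likely to hold a p300 peak through their number alone. The share over all loci is not given here, so the count does not set joint loci apart. The number of loci with at least 3 peaks of each list depended on the joining distance, with 184 at 5 kb and 575 at 25 kb. It also depended on the length of the lists, with 113 for the upper 50% of each list and 186 for lists of equal length.

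The largest joint locus lay on chromosome 1S from 141041492 to 141132748. It spanned 91.3 kb and held 18 β-catenin and 19 Smad1 peaks, with 11 of the former and 12 of the latter in contact. Few of its β-catenin peaks were among the strongest of their list. By median fold, its β-catenin peaks were below the whole list (12.1) and its Smad1 peaks above theirs (8.31). β-catenin folds ran from 7.73 to 22.2 (median 11.0) and Smad1 folds from 5.30 to 21.1 (median 10.5), and 1 β-catenin and 3 Smad1 peaks were in the top 10% of their lists. Explant p300 had 14 peaks in it and whole-embryo p300 had 9. The next locus, on chromosome 1L from 170129093 to 170217509, held 19 β-catenin peaks (8.06- to 17.0-fold), 14 Smad1 peaks (6.42- to 19.8-fold) and 14 explant p300 peaks over 88.4 kb. None of its β-catenin peaks was in the top 10% of the list, but 5 of its Smad1 peaks were in the top 10% of theirs.

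The loci on chromosomes 7S and 3L were shorter and held stronger peaks. On chromosome 7S from 16903730 to 16943898, 12 β-catenin and 11 Smad1 peaks lay within 40.2 kb. Of these, 9 β-catenin and 8 Smad1 peaks were in the top 10% of their lists, and the median folds were 24.8 and 17.4. The 9 β-catenin peaks with Smad1 had summits a median of 19 bp from those of Smad1. They included a peak at 16915449 with 25.9-fold β-catenin and 30.4-fold Smad1 enrichment and the peak at 16939157 described above. The 3 β-catenin peaks of the locus without Smad1 were the weakest there, at 11.0-, 6.97- and 13.5-fold. On chromosome 3L from 110790927 to 110833955, 12 β-catenin and 13 Smad1 peaks lay within 43.0 kb. The strongest β-catenin peak there, at 110794203 (37.2-fold), had a 22.0-fold Smad1 partner, and the one at 110828712 (34.5-fold) had a 27.8-fold partner.

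A locus on chromosome 2L from 148370300 to 148448773 held 24 β-catenin and 9 Smad1 peaks over 78.5 kb. The next 5 loci also held 9 Smad1 peaks, with 10 to 18 β-catenin peaks, and the one on 2L was taken among them for its total number of peaks, so its excess of β-catenin follows from that choice. Each of its 9 Smad1 peaks met β-catenin, whereas 15 of its β-catenin peaks had no Smad1. It held 5 explant p300 peaks, fewer than the 12 to 14 of the other 4 loci, which held more Smad1 peaks. The next 5 loci, with as many Smad1 peaks as the one on 2L, held 5 to 10 explant p300 peaks. Loci with a single protein held fewer peaks than these joint loci, which were chosen for their numbers of peaks. Without Smad1, the most β-catenin peaks in a locus were 6, at 3 loci, which were on chromosomes 4L (from 4562142 to 4585536), 5S (from 20333261 to 20355174) and 6L (from 37007885 to 37026166). Without β-catenin, the most Smad1 peaks were 4, on chromosome 6L from 121147106 to 121162615 (6.41- to 10.2-fold). Loci with at least 3 β-catenin and no Smad1 peak numbered 152, and those with at least 3 Smad1 and no β-catenin peak numbered 14. The single-protein loci were named after their values were seen.

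**Figure D5:**
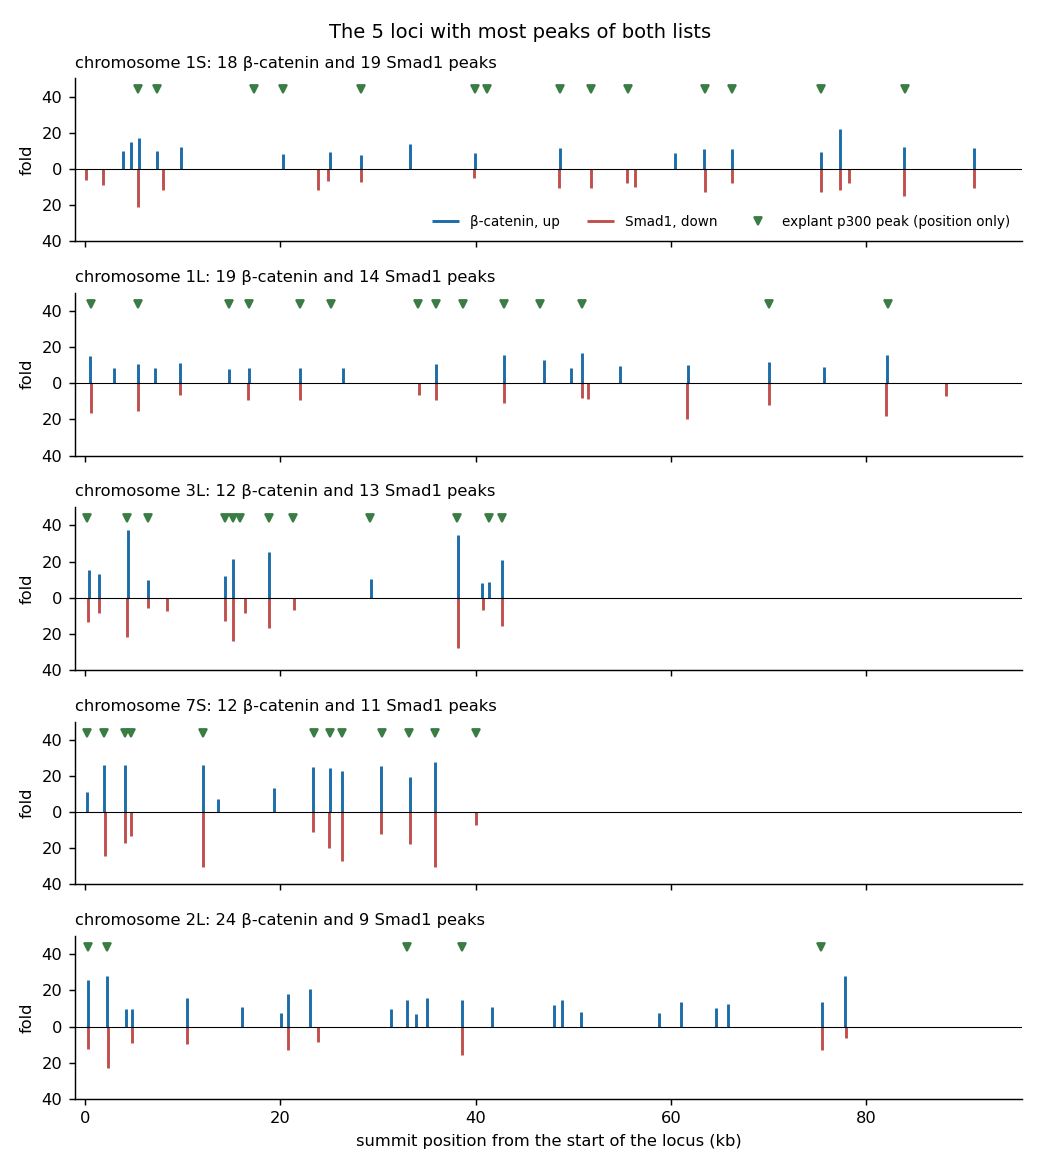
Summit positions in kb from the start of the locus (x axis) and fold enrichment (y axis) of β-catenin peaks (blue, upward) and Smad1 peaks (red, downward) in the 5 loci with most peaks of both lists; green triangles mark explant p300 peaks, without their fold. Many peaks of both proteins stand at the same positions along each locus, with the highest median folds in the loci on chromosomes 7S and 3L and many β-catenin peaks without Smad1 on chromosome 2L.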

How the data were processed

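Chromatin immunoprecipitation and sequencing was measured by the authors in 20 libraries of stage 20 embryos or explants, and 4 peak lists were deposited. The submitters' processing notes name FastQC, Trimmomatic, Bowtie2, Picard, SAMtools and MACS2, with no versions. The titles of both compared lists name IDR (irreproducible discovery rate). Its settings and the genome build were not given in the sources used here. Each deposited list gives, per peak, positions, a display score, the authors' fold enrichment (a ratio of ChIP signal to background), a −log10 p-value and a −log10 q-value. All ranks are by the authors' −log10 p-value. Per the deposited peak names, the β-catenin peaks were called on pooled libraries. The Smad1 peak names also say pooled, but the labels give 1 Smad1 ChIP library, and what was pooled is not stated. Folds of different lists were normalised separately and are compared as ranks or correlations. Positions are printed counting from 1. Depth is unknown, so no precision per peak is given.

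From these lists, overlaps (at least 1 bp), mutual nearest summit pairs, gaps and loci were computed with Python 3.11.15, numpy 2.4.6, pandas 2.3.3 and scipy 1.17.1, and drawn with matplotlib 3.10.9. The functions were tested on simulated lists with known answers. No test was made between conditions, since each list is a single call set. Alternatives were a minimum overlap set to 50% of the narrower interval, a distance of at most 200 bp from summit to summit, the upper 50% of each list, equal list lengths, named chromosomes alone, ranks by fold, every overlapping pair, gaps between summits, close summits, Pearson's r, joining gaps of 5 and 25 kb and the whole-embryo p300 list. The sites named were, by rule, the 5 shared sites with the smallest sum of rank percentiles, the 3 with the most opposed ranks in each direction, the 3 with the largest summit distance, the 3 best-ranked unshared peaks of each list and the 5 loci with most peaks of the scarcer list, with ties, as for the fifth locus, broken by the total number of peaks and then by the sum of folds. The members, rules and alternatives were chosen with earlier results of these data known. The display scores and q-values were not used. Gene names, sequences and motifs were not analysed here, for want of a genome of the lists' build.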

Additional observations from a re-analysis of the deposited data

How the results depend on the processing

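Of 66 recomputed values, 36 stayed within the counting interval of the reported value (for loci, within 1.5 times) and 30 moved. Only the correlations could be called reversed, by a change of sign, and none of them was. With summits within 200 bp as the rule, the share of Smad1 peaks with β-catenin was 60.4%, that of β-catenin peaks with Smad1 29.5%, the median summit distance 25 bp and the median gap from unshared Smad1 to β-catenin 13.4 kb. With the upper 50% of each list, the shares were 57.5% and 28.0%, the summit distance 24 bp, rho of the folds 0.199 and of the ranks 0.319, the gaps 143.4 kb from β-catenin and 27.3 kb from Smad1, and the loci with at least 3 peaks of each list 113. The explant p300 shares were then 80.9% (both strong), 59.5% (β-catenin alone), 68.1% (Smad1 alone) and 54.7% (neither). The intervals for β-catenin alone (54.8 to 64.2) and Smad1 alone (63.3 to 72.6) overlapped in that setting. With lists of equal length, the shares were 40.8% and 40.4%, the gap from Smad1 33.7 kb and the loci 186. Sites with summits within 50 bp gave a rho of 0.270 for folds and 0.406 for ranks, and Pearson's r of log2 folds was 0.280. Ranking by fold gave a rho of 0.243, which only repeats the rho of the folds. Joining gaps of 5 and 25 kb gave 184 and 575 loci. With whole-embryo p300 the shares were 47.0%, 18.4%, 31.5% and 19.2%, and there the second and the last stood in the other order than with explant p300. The gap from unshared β-catenin peaks was the longer one in 6 of 6 settings. Only the setting with equal list lengths takes out the difference in length. In the others the β-catenin list stayed the longer, which by itself makes the gap from Smad1 shorter. Why the values moved was not tested, beyond the fewer peaks that shorter lists hold.

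No paired analysis was possible because each group is 1 library and the lists are pooled, and there is no replicate to leave out. Depth is unknown, so the absence of a peak from a list does not show absence of binding.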

Other observations

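The numbers in the peak names run beyond the number of deposited peaks. Within each list they rise with position on every sequence, reach 31255 for Smad1 and 195449 for β-catenin, and 25.5% and 8.34% of these numbers are listed. Of the 10739 unshared β-catenin peaks that lie between 2 listed Smad1 peaks, 334 (3.11%) have no missing Smad1 number in the interval, against 2414 of all 7782 pairs of neighbouring Smad1 peaks (31.0%). The median interval around such a β-catenin peak lacks 6 numbers. Of the 2864 unshared Smad1 peaks between listed β-catenin peaks, 0 lie in an interval with no missing β-catenin number, against 2144 of 15852 pairs of neighbouring β-catenin peaks (13.5%), and the median interval lacks 16. A longer interval is more likely to hold a peak of the other list, and the place of an unlisted peak within an interval is unknown.

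Some of the largest joint loci lie at like relative positions on an L chromosome and its S counterpart, measured as a percentage of the span up to the last peak of any list. The locus with 18 β-catenin and 19 Smad1 peaks is at 78.4% of chromosome 1S and the one with 19 and 14 at 77.5% of 1L. The locus with 12 and 11 peaks is at 18.9% of 7S, and one with 12 and 9 at 17.2% of 7L. The locus with 24 and 9 peaks is at 81.9% of 2L, and one with 18 and 9 at 80.7% of 2S. For the 3L locus (12 and 13 peaks, 76.8%), the joint locus within 2 percentage points on 3S, at 75.5%, holds 4 and 4 peaks. A locus with 11 and 9 peaks at 27.9% of 3S has one with 6 and 5 at 27.3% of 3L. Another with 10 and 9 peaks at 65.9% of 1L has one with 5 and 3 at 66.3% of 1S. A locus with 14 and 9 peaks at 93.0% of 7S had no joint locus within 2 percentage points on 7L. Gene content was not compared, and up to 5 joint loci lie within that distance on the partner. How often any joint locus has another within that distance on the partner was not tested.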
